A study of Mus musculus with 4 samples.

Results

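The genes that carry a cell from G2 through mitosis to the separation of daughter cells were examined in muscle satellite cells (the stem cells that rebuild muscle fibres) from young and aged mice. The set held 42 genes named by function (G2 and mitotic cyclins and kinases, spindle, kinetochore and cytokinesis). Their choice rests on function and not on a threshold in these values, but it was made with earlier results of the data known. Of these, 41 could be followed through 97 probe sets annotated to 1 gene each, among 18193 genes in all, and Ccnb1 (cyclin B1) was not analysed here because no such probe set named it. Each of 28 members had several probe sets, and the other 13 had 1. A gene's value is the mean of its probe sets.

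The cells were Syndecan-4-sorted from hindlimb muscle of C57BL/6J mice on Affymetrix arrays. The young group was 3 to 6 months old and the aged group 20 to 25 months old. The sex of the mice was not in the labels used here. Each age had 2 independent pools, each hybridised to 1 array, 4 arrays in all. A pool held 4 to 8 mice by one description of the series and 6 to 8 by the protocol. The labels name no treatment, RNA was amplified in 2 rounds, and differences between the mice of a pool are averaged away. The deposited values, read as log2 although no source names the base, were centred on the median of the 4 arrays for every probe set. A value therefore says how a pool stands to the other pools and nothing about how abundant a transcript is. Whether a member, or a marker that defines the sorted cells, was expressed at all could not be read, and no member's level could be set against another's.

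As background, cyclin A and cyclin B with the kinase Cdk1 drive entry into mitosis, and the Aurora and Polo-like kinases build the spindle. The spindle checkpoint holds the anaphase-promoting complex (APC/C) inactive until every chromosome is attached, and cytokinesis follows its release. Transcripts of these genes are made mainly in G2 and are low in cells outside the cycle. Most satellite cells of uninjured muscle are quiescent, and they re-enter the cycle after injury or in culture.

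Many promoters of G2 and mitotic genes are held silent outside the cycle through a CHR element (cell cycle genes homology region), which the MuvB core of the DREAM complex binds, and activated through CCAAT boxes bound by the factor NF-Y. Windows from 250 bases before to 50 bases after the gene start (RefSeq, GRCm38.p6) were listed for 35 of the 42 genes, as 38 windows. A CHR element, searched as TTTGAA or TTCGAA on both strands, stood in 29 of the 38 windows (76.3%), against 19.2% of all 32851 windows of the table. A CCAAT box, searched as CCAAT on both strands, likewise stood in 29 of 38 (76.3%), against 37.4% of all windows, and both together in 26 (68.4%, against 7.52%). Windows of a gene with 2 starts overlap in part. Among comparison genes, a CHR element stood in 53.1% of 64 windows of other G2 and mitosis genes, 22.0% of 41 windows of S phase genes and 25.0% of 28 windows of G1 cyclins, CDK inhibitors and pocket proteins. The last of these lists also names E2f, Lin and Cdk genes. A CCAAT box stood in 64.1%, 56.1% and 42.9% of the windows of these lists. These are matches of letters, and binding was not measured.

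The 150 bases before the start are shown for 6 members, 3 whose aged pools both lay above both young pools (Ube2c, Cdc20 and Bub3) and 3 whose difference between ages had opposite signs in the pools numbered 1 and 2 (Cdk1, Mki67 and Top2a). All 6 hold both motifs there, and they do not stand for the members as a whole. Bub1, Bub1b, Ndc80 and Kif23, whose aged pools also both lay above, hold no CHR element in that stretch. Each of these has such an element elsewhere in its longer window. The 6 stretches are written 5′ to 3′ in the direction of the gene with CHR elements and CCAAT boxes, on either strand, in capitals. The 2 motifs overlap nowhere in these stretches. The stretches lie at chr2:164769779-164769928 (plus strand), chr4:118437344-118437493 (minus strand), chr7:131560220-131560369 (plus strand), chr10:69352913-69353062 (minus strand), chr7:135716380-135716529 (minus strand) and chr11:99024190-99024339 (minus strand), in that order, on GRCm38.p6. That of Bub3 lies before the first of its 2 listed starts.
Ube2c: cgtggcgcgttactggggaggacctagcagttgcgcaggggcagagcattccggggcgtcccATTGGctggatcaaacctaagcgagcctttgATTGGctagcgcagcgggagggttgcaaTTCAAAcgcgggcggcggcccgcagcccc
Cdc20: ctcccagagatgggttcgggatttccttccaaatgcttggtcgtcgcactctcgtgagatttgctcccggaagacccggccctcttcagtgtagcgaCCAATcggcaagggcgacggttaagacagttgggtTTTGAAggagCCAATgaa
Bub3: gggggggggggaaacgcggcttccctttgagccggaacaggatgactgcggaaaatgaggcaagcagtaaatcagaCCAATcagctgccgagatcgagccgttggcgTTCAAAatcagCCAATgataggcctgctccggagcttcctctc
Cdk1: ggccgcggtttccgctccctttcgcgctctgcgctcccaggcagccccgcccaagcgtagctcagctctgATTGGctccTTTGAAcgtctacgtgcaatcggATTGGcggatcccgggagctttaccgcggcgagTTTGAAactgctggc
Mki67: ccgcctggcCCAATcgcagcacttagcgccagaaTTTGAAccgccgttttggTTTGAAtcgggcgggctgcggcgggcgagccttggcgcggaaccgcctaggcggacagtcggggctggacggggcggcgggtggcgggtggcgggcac
Top2a: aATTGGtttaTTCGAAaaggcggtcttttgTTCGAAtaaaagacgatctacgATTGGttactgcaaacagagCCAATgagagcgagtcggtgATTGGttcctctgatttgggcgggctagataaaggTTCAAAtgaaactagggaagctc
In Ube2c a CCAAT box begins 57 bases before the start and the CHR element 29 bases before it. The boxes nearest upstream of the last CHR element begin 53 bases before the start in Cdc20, 74 in Bub3, 48 in Cdk1 and 58 in Top2a, with the element at 18, 43, 15 and 23 bases. In Mki67 the box begins at 141 and the CHR elements at 116 and 98 bases. A CCAAT box starting 25 to 40 bases before a CHR element stood in 17 of the 38 windows (44.7%, 14 genes), against 0.706% of all windows and 7.81% of those of other G2 and mitosis genes. That range was chosen after the sequences had been seen. Of the 26 measured members with a CHR element in a window 19 were higher in aged pools by their means (median difference 0.24), as were 5 of 8 with a window but no such element (0.10) and 5 of 7 with no window listed (0.11).

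Aged pools were then compared with young pools. No member passed the adjusted threshold of 0.05 in limma over all genes (lowest adjusted p = 0.506), where 0.0% of all 18193 genes passed. In simulated data of this size no altered gene passed that threshold either. Only a small part of the genes was altered there, with noise independent between genes. That setting may differ from these data, so it does not show how often a real difference would pass. The absence of adjusted calls does not show that the members were alike at both ages. At an unadjusted p under 0.05 there was 1 member of 41, higher in aged pools, against 9.04% of all genes. By their means 29 members were higher and 12 lower in aged pools, or 70.7% higher against 53.8% of all genes and 29.3% lower against 46.2%. The median difference (aged minus young, log2) was 0.17, against 0.05 over all genes. Without young pool 1 the median was 0.06 with 25 members higher (all genes 0.00), and without aged pool 2 it was 0.07 with 22 higher (all genes -0.00), so the medians of the members and of all genes were both lower without either pool. The differences ran from -0.63 in Nuf2 to 1.00 in Cdc25c, and 32 of the 41 were smaller than their standard error in the fit. That error rests partly on the spread over all genes. The smallest was 0.35, in Bub1, whose pools lay 0.05 and 0.07 apart within an age.

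The spread between pools of one age, estimated in part from all genes together, set how small a difference could be seen. The 95% interval of the fit had a median half-width of 1.03 (log2), that is about 2-fold either way, and the interval of 36 members stayed within a 4-fold difference in both directions. A single interval (1 member, Foxm1) lay wholly within 2-fold, so a difference of that size was not excluded for the other members. Members that did not pass are therefore not shown to be alike at both ages. A two-sided exact permutation test of 2 pools against 2 cannot give a p below 0.333.

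**Figure D1:**
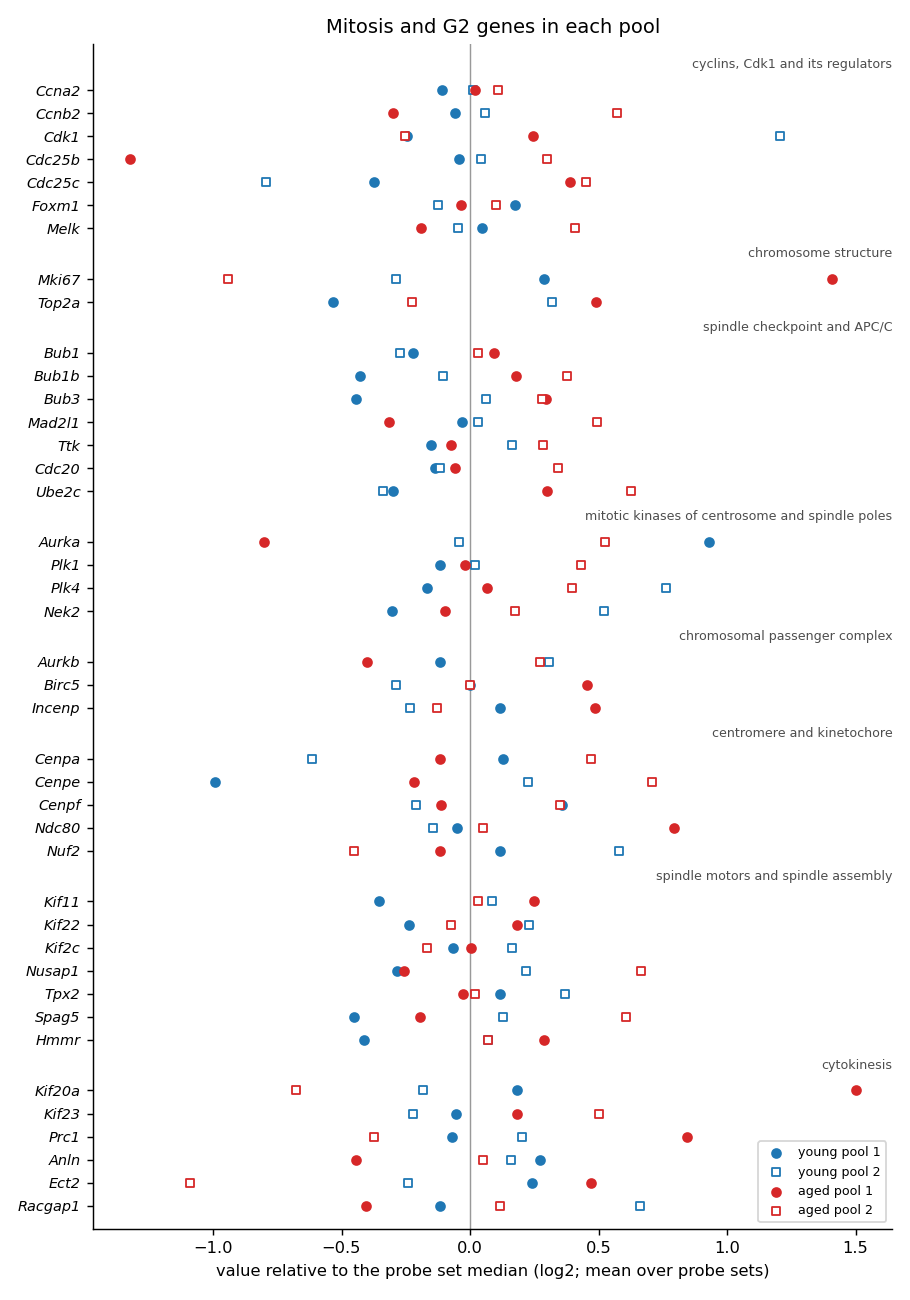
Value of each of the 41 members (log2, relative to the probe set median, mean over probe sets) in the 4 pools, by role, with young pools in blue, aged pools in red, number 1 filled and number 2 open. Pools of both ages interleave in 29 members, and Mki67 and Kif20a show aged pool 1 far right of aged pool 2; for Birc5 and Hmmr an aged point hides a young one.

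Pools of the ages did not overlap in 12 members (29.3%), 9 with both aged pools higher and 3 with both lower. Over all genes 36.8% did not overlap, 19.9% with aged pools higher and 16.9% with aged pools lower. The 9 higher members were Ccna2, Cdc25c, Bub1, Bub1b, Bub3, Cdc20, Ube2c, Ndc80 and Kif23, and the 3 lower ones Nuf2, Tpx2 and Anln. Whether these shares differ from those of all genes was not tested. Member values average 97 probe sets over 41 genes and those of all genes 34945 over 18193, and the part of this averaging in such shares was not tested.

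Among the cyclins, Cdk1 and its regulators, Cdc25c had the largest difference of any member, while Cdk1 itself differed more between the young pools than between the ages. Cdc25c, a phosphatase that activates Cdk1 at mitotic entry, stood at -0.37 and -0.79 in the young pools and at 0.39 and 0.45 in the aged pools. Both aged values lay above both young ones, a 2.00-fold difference (1.00 ± 0.38 SE, n = 2 pools per age, unadjusted p = 0.0400, adjusted p = 0.506 with limma). Its 2 probe sets differed by 0.70 and 1.31 in the same direction, the larger in an _x_at probe set (a suffix, like _s_at, for probes that can match several transcripts), and without any 1 pool the difference ran from 0.79 to 1.21. Cdk1, the kinase of mitotic entry, stood at -0.24 and 1.21 in the young pools and at 0.24 and -0.25 in the aged pools. Young pool 2 was the high one and the ages overlapped (-0.49 ± 0.58, and 0.24 without that pool).

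Cdc25b, the related phosphatase that acts earlier in G2, stood at -0.04 and 0.04 in the young pools and at -1.32 and 0.30 in the aged pools. A single low pool, aged 1, gave the whole of its negative difference (-0.51 ± 0.60, and 0.30 without it). Foxm1, the transcription factor that activates many G2 genes, stood at 0.17 and -0.12 in young pools and -0.03 and 0.10 in aged pools. Its pools interleaved, with a difference of 0.01 ± 0.37 and a 95% interval from -0.91 to 0.93, and its sign turned under quantile normalization, with array medians set to 0 and with the probe set of largest SD. Cyclin A2 (Ccna2, 0.11 ± 0.36), cyclin B2 (Ccnb2, 0.14 ± 0.44) and the kinase Melk (0.11 ± 0.40) differed by less than 1 standard error. The aged pools of Ccna2 lay above the young ones, the nearest by 0.02 against 0.01.

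The proliferation antigen Mki67, which coats mitotic chromosomes, and the DNA-untangling enzyme Top2a were each highest in aged pool 1. Mki67 stood at 0.29 and -0.29 in the young pools and at 1.41 and -0.94 in the aged pools. The aged pools were the highest and the lowest of the 4, 2.35 apart, and the difference of the means was small beside that gap (0.23 ± 0.81, ranging from -0.94 to 1.41 without 1 pool). Top2a stood at -0.53 and 0.32 in young pools and at 0.49 and -0.23 in aged pools. The ages overlapped (0.24 ± 0.49), with all 3 probe sets between 0.10 and 0.36, and the sign turned without young pool 1 (-0.19) or aged pool 1 (-0.12).

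All 7 members of the spindle checkpoint and its target were higher in aged pools by their means, and none passed the test. Of these, 5 had no overlap of pools (19.9% of all genes had aged pools higher without overlap). Ube2c, the ubiquitin-conjugating enzyme of the APC/C, stood at -0.30 and -0.34 in the young pools and at 0.30 and 0.62 in the aged pools. The aged pools lay clearly above (0.78 ± 0.37, 1.72-fold, adjusted p = 0.631 with limma), and the difference was 0.62 to 0.95 without any 1 pool. Bub1b (BubR1, a subunit of the checkpoint complex) stood at -0.43 and -0.10 in young pools and 0.18 and 0.38 in aged pools. It too separated by age (0.55 ± 0.37, adjusted p = 0.803 with limma), but of its 3 probe sets 1 lay at -0.08 and 1 at 1.11. Cdc20, the APC/C activator that the checkpoint restrains, stood at -0.14 and -0.12 in young pools and -0.06 and 0.34 in aged pools. Aged pool 1 was above the young pools by under 0.1, so the difference rested on aged pool 2 (0.27 ± 0.37, and 0.07 without it).

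The checkpoint genes Bub1 (0.31 ± 0.35) and Bub3 (0.48 ± 0.39) also had both aged pools above both young ones. In Bub3 all 5 probe sets were higher, by 0.10 to 0.86, and Bub1 kept 0.28 to 0.34 without any 1 pool. The checkpoint kinase Ttk (Mps1, 0.10 ± 0.38) and Mad2l1 (Mad2, 0.09 ± 0.43) overlapped, and both changed sign without aged pool 2 (-0.08 and -0.31). The median of the group was 0.31, from 0.26 to 0.47 without any 1 pool, and 0.78 when each gene was read from its probe set of largest SD. With so few genes chosen by role, this count is a description of the group, and 53.8% of all genes were higher in aged pools. The group holds members only, and comparison genes of the same machinery went both ways. Among these were the APC/C subunits Anapc5 (-1.46 ± 0.39) and Cdc16 (0.93 ± 0.45). The checkpoint genes Zw10 (-0.57 ± 0.42) and Mad1l1 (0.58 ± 0.41) likewise differed in sign.

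The kinases of centrosome and spindle poles gave no common direction, with 3 of 4 lower by their means. Aurka, the Aurora kinase of the spindle poles, stood at 0.93 and -0.04 in the young pools and at -0.80 and 0.52 in the aged pools. Aged pool 1 was lowest and young pool 1 highest, while the pools numbered 2 stood the other way round (-0.58 ± 0.61, and 0.08 without aged pool 1). Its 2 probe sets disagreed, at -1.77 and 0.61. Plk1, the main Polo-like kinase of mitosis, stood at -0.12 and 0.02 in young pools and -0.02 and 0.43 in aged pools. Its pools overlapped (0.25 ± 0.38, and 0.03 without aged pool 2).

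Plk4, the kinase of centriole duplication, differed by -0.07 ± 0.46, and its 3 probe sets ran from -1.39 to 0.81. The centrosome kinase Nek2 likewise stood at -0.07 ± 0.44 with probe sets from -0.53 to 0.54. Young pool 2 was the highest pool for both, and without it they stood at 0.40 and 0.34.

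The chromosomal passenger complex, which corrects wrong attachments and later sits at the division plane, had differences between -0.16 and 0.37. Aurkb, its kinase, stood at -0.12 and 0.31 in the young pools and at -0.40 and 0.27 in the aged pools. Number 2 was the higher pool of each age and the ages overlapped (-0.16 ± 0.43), and the sign turned with the probe set of largest SD (0.03). Birc5 (survivin) stood at 0.00 and -0.29 in young pools and 0.46 and 0.00 in aged pools. Aged pool 2 and young pool 1 were equal there, so the ages touched (0.37 ± 0.39). The scaffold Incenp differed by 0.24 ± 0.41, with 1 of its 5 probe sets at 1.04 and the others between -0.32 and 0.40.

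At the centromere and kinetochore, 4 of 5 members were higher by their means, and the partners Ndc80 and Nuf2, which bind each other in the complex that grips microtubules, had differences of opposite sign, which were not tested against each other. Ndc80 stood at -0.05 and -0.15 in the young pools and at 0.80 and 0.05 in the aged pools. Both aged pools were higher, aged pool 1 by far the more (0.52 ± 0.42, and 0.15 without it). Nuf2 stood at 0.12 and 0.58 in the young pools and at -0.12 and -0.45 in the aged pools. Both aged pools were lower, the most negative mean of all members (-0.63 ± 0.39, adjusted p = 0.775 with limma), and the difference kept its sign without any 1 pool (-0.87 to -0.40). Each of these 2 genes had 1 probe set.

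Cenpe, a kinesin of the kinetochore, stood at -0.99 and 0.23 in the young pools and at -0.22 and 0.71 in the aged pools. Young pool 1 was low and number 2 the higher pool of each age (0.63 ± 0.58, and 0.02 without young pool 1). The centromeric histone Cenpa (0.42 ± 0.45) had probe sets from -0.73 to 1.13, and without young pool 2 it stood at 0.05. The kinetochore protein Cenpf stood at 0.04 ± 0.42. The median of the 5 was 0.42, and 0.05 without young pool 2.

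**Figure D2:**
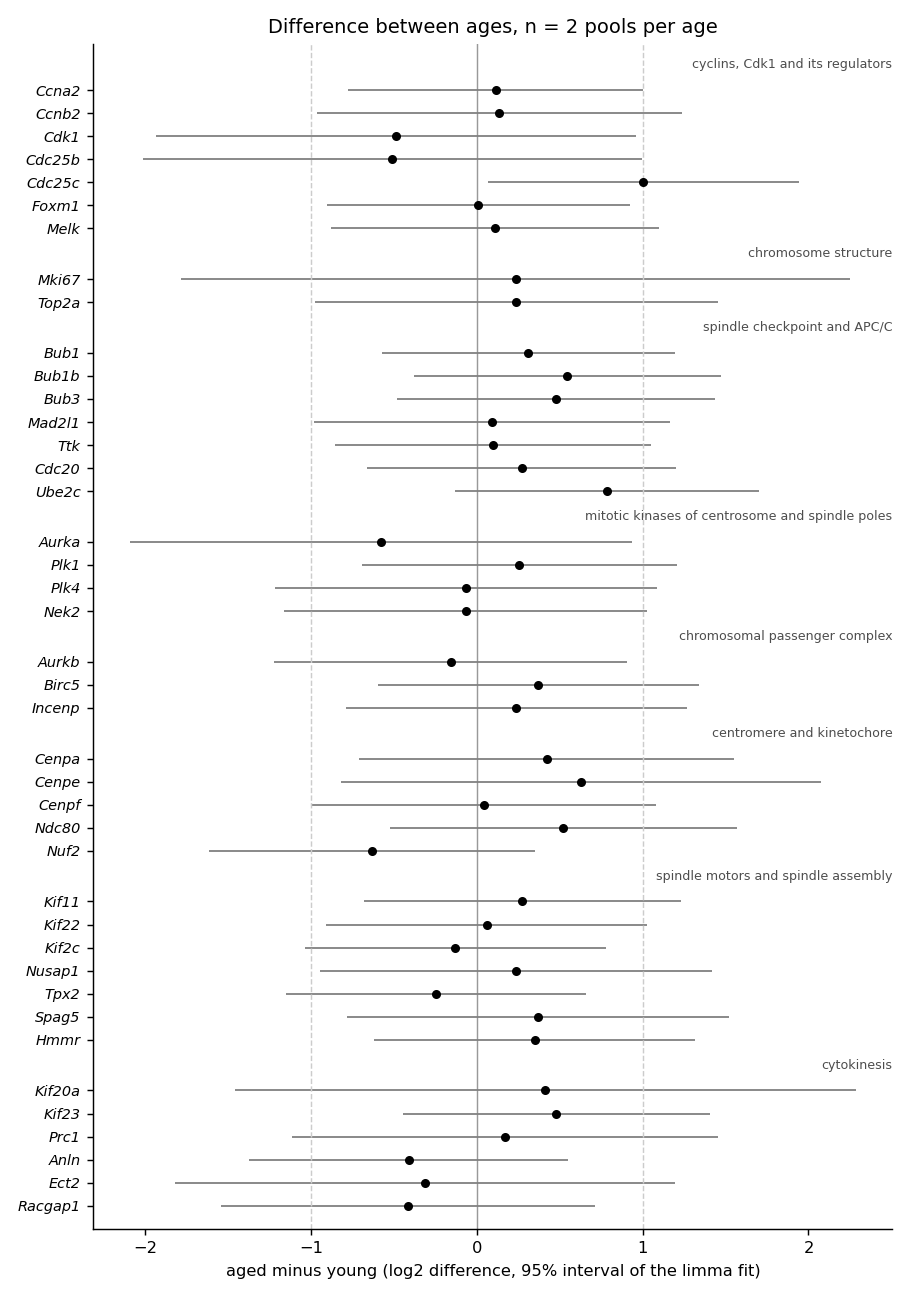
Difference between ages for each member by role (log2, aged minus young), with bars giving the 95% interval of the limma fit and dashed lines marking 2-fold. The intervals of 40 members include 0, and that of Cdc25c begins at 0.06.

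Spindle motors and assembly factors had differences between -0.25 and 0.37. The bipolar spindle motor Kif11 (0.27 ± 0.38), the hyaluronan receptor and spindle protein Hmmr (0.35 ± 0.39), Spag5 (astrin, 0.37 ± 0.46) and Nusap1 (0.24 ± 0.47) were higher by their means. For Hmmr, all 5 probe sets lay between 0.18 and 0.44, but both pools numbered 2 stood at 0.07. The microtubule-depolymerizing kinesin Kif2c stood at -0.13 ± 0.36 and the chromosome-arm motor Kif22 at 0.06 ± 0.39. Tpx2, which activates Aurora A on the spindle, had both aged pools below both young ones (-0.25 ± 0.36), with 3 of its 4 probe sets lower and 1 at 0.70. In 5 of the 7 genes young pool 1 was the lowest pool, and the median of 0.24 was -0.01 without it and -0.03 without aged pool 2.

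The cytokinesis genes fell into 3 higher and 3 lower by their means, and 3 of the 6 differed over 2-fold between the aged pools. Kif20a, a kinesin of the central spindle, stood at 0.18 and -0.18 in the young pools and at 1.50 and -0.68 in the aged pools. As in Mki67, aged pool 1 was the highest and aged pool 2 the lowest of the 4 (0.41 ± 0.75). Prc1, which bundles the central spindle, was 1.22 higher in aged pool 1 than in aged pool 2 (0.17 ± 0.51), and its sign turned without the probe sets ending in _x_at and _s_at (-0.34). Ect2, the activator of RhoA at the division plane, was 1.56 higher in aged pool 1 than in aged pool 2 (-0.31 ± 0.60).

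Racgap1, partner of Kif23 in centralspindlin, stood at -0.12 and 0.66 in the young pools and at -0.41 and 0.12 in the aged pools. Its pools overlapped (-0.41 ± 0.45), with all 3 probe sets lower, and without young pool 2 the difference was -0.03. Kif23 itself had both aged pools higher (0.48 ± 0.37), with 1 of 3 probe sets at -0.24 and 1 at 1.10. Anln (anillin, a scaffold of the contractile ring) had both aged pools lower (-0.41 ± 0.39), with both probe sets lower.

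Pools of one age differed over 2-fold in 6 members between the aged pools (14.6%, against 20.5% of all genes) and in 2 between the young pools (4.88%, against 18.6%). Between the aged pools these were Mki67, Kif20a, Ect2 and Prc1, higher in pool 1 by 2.35, 2.18, 1.56 and 1.22, and Cdc25b and Aurka, higher in pool 2 (pool 1 minus pool 2, -1.63 and -1.33). Between the young pools they were Cdk1 and Cenpe, higher in pool 2 (pool 1 minus pool 2, -1.45 and -1.22). Among these 6, which were picked for their gap between single arrays, Mki67, Kif20a, Ect2 and Cdc25b have 1 probe set each, and their values could not be checked against another.

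By pool number, the median difference of the members was 0.23 between pools numbered 1 and 0.20 between pools numbered 2, against 0.08 and 0.01 over all genes. Both numbers were higher in aged pools for 16 members (39.0%, against 31.0% of all genes) and both lower for 5 (12.2%, against 25.0%). The numbers went opposite ways for 20 members (48.8%, against 42.8%). Mki67 was 1.12 higher within number 1 and stood at -0.65 within number 2, and Aurka stood at -1.73 and 0.57. Cdc25c (0.76 and 1.24) and Ube2c (0.60 and 0.96) were higher within both.

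**Figure D3:**
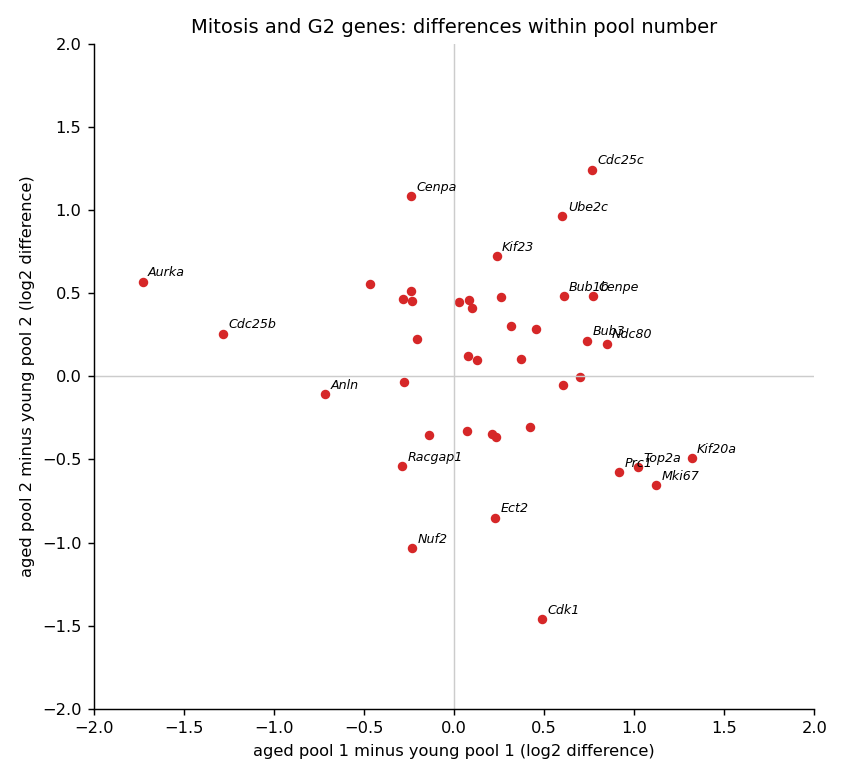
Each member's difference between aged and young pool number 1 (horizontal, log2) against that between the pools numbered 2 (vertical, log2). Members spread over all quadrants, 16 in the upper right and 5 in the lower left, with Mki67, Kif20a, Top2a and Prc1 at the lower right and Aurka and Cdc25b at the upper left.

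Of the 97 single probe sets of the members, 62 were higher and 35 lower in aged pools. Tested alone in limma, 0 passed the adjusted threshold (0.0% of 34945 probe sets) and 1, of Cdc25c, had an unadjusted p under 0.05, against 7.94% of all. Of the 28 members with several probe sets, 9 had all higher, 2 (Racgap1 and Anln) all lower and 17 had probe sets in both directions. The widest ranges were those of Aurka, Plk4, Cenpa and Tpx2 (-0.97 to 0.70), named here after their values were seen. No member had probe sets beyond 1 in both directions.

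**Figure D4:**
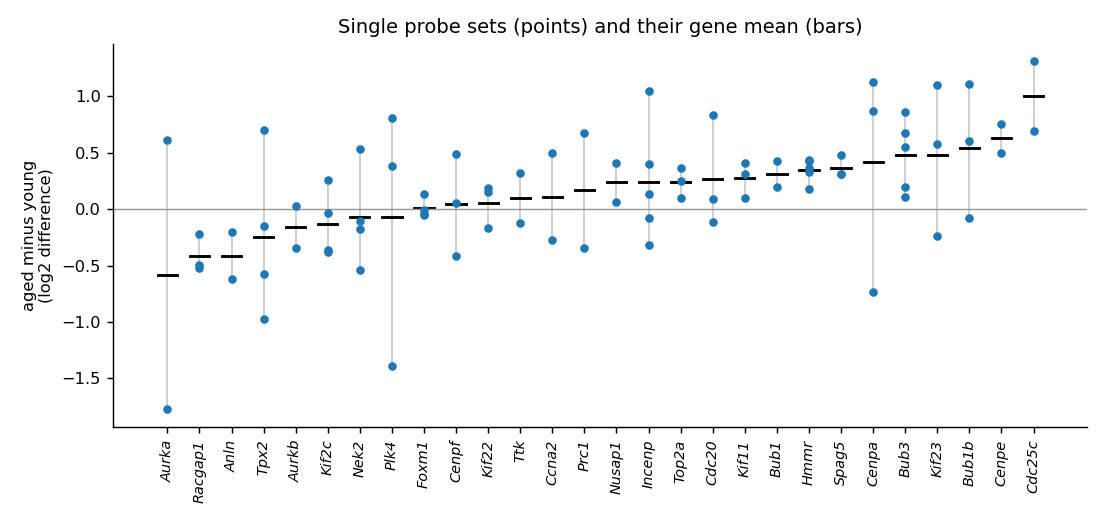
Differences between ages (log2, aged minus young) of the single probe sets of the 28 members that have several, as points, joined by a line, with the gene mean as a bar, ordered by that mean. Points on both sides of 0 are seen in 17 members, most widely in Aurka and Plk4, while the 5 probe sets of Bub3 and of Hmmr all lie above 0.

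Other genes of the cycle were described from lists drawn up by function, with earlier results of the data known. Of 70 other G2 and mitosis genes 68 were measured, 37 higher and 31 lower by their means, with a median of 0.10. The share higher was 54.4%, near the 53.8% of all genes and below the 70.7% of the members. At an unadjusted p under 0.05 there were 3 higher (2.85% of all genes were) and 3 lower (6.19% of all genes). The higher ones were the condensin subunit Smc4 (1.29 ± 0.37), the chromatin protein Hmgb2 (1.32 ± 0.43) and the kinesin Kifc1 (1.19 ± 0.42), and the smallest p was that of the APC/C subunit Anapc5 (-1.46 ± 0.39, adjusted p = 0.325 with limma). The other 2 lower ones were the kinetochore genes Zwint (-0.89 ± 0.35) and Mis12 (-1.55 ± 0.62), named after their values were seen. The median turned to -0.10 without young pool 1 and to -0.11 without aged pool 2.

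S phase genes, 42 of 44 measured, had 30 higher (71.4%, against 53.8% of all genes) and 12 lower by their means. Their median of 0.35 stayed between 0.29 and 0.41 without any 1 pool. At an unadjusted p under 0.05 there were 3 higher (2.85% of all genes were) and 2 lower (6.19% of all genes). The higher ones were the licensing factor Cdt1 (1.48 ± 0.45), the clamp loader subunit Rfc4 (1.05 ± 0.38) and the primase subunit Prim2 (0.96 ± 0.38, named after its value was seen). The lower ones were the helicase subunit Gins4 (-1.41 ± 0.47) and the DNA repair enzyme Ung (-2.63 ± 0.95). None passed when adjusted (lowest adjusted p = 0.397 with limma). The list of 28 G1 cyclins, CDK inhibitors and pocket proteins also held E2f1 to E2f5, Tfdp1, Lin9, Lin37, Lin52, Lin54, Cdk2, Cdk4 and Cdk6. Of its 28 genes 12 were higher (42.9%, against 53.8% of all genes) and 16 lower. Their median was -0.09, which ran from -0.27 without aged pool 1 to 0.26 without young pool 2. Of these, E2f2 (-1.56 ± 0.43) and E2f3 (-1.35 ± 0.46), activators of S phase entry, were the 2 with an unadjusted p under 0.05. Both were lower, as were 6.19% of all genes at that p. Whether the S phase genes and the members differ as lists was not tested.

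**Figure D5:**
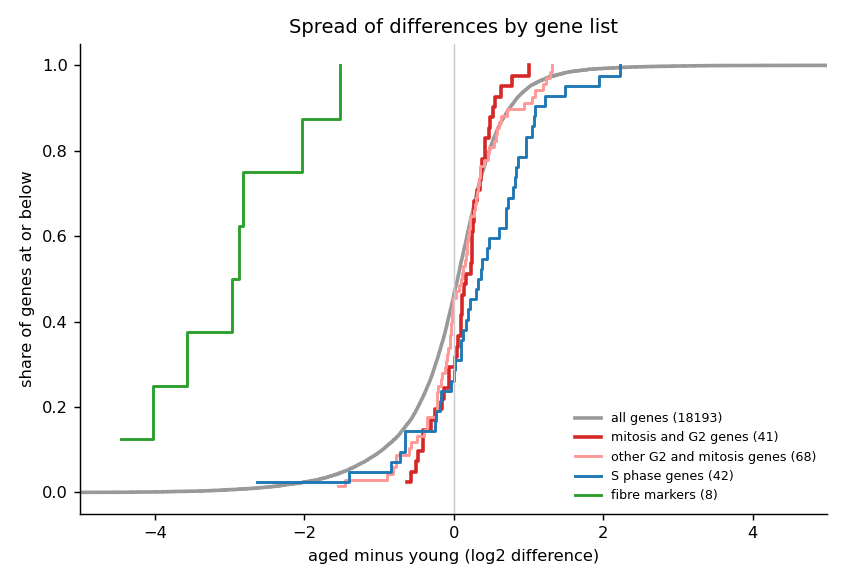
Cumulative share of genes (vertical) at or below a given difference between ages (horizontal, log2, aged minus young) for all genes (those beyond the axis not drawn), the 41 members, 68 other G2 and mitosis genes, 42 S phase genes and 8 fibre markers. The members run from -0.63 to 1.00, inside the tails of all genes, while the fibre markers lie wholly to the left.

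Markers of some other cell types stood apart between the groups beside these values, although none passed the adjusted threshold (lowest adjusted p = 0.0998 with limma). Other cells' RNA cannot be told apart from a change within the sorted cells. Over all genes 53.8% were higher and 46.2% lower by their means. Fibre markers were lower in all 8 of 8 cases, all with an unadjusted p under 0.05 (6.19% of all genes were lower at that p). Their list mean was 1.51 and 1.42 in the young pools and -1.68 and -1.46 in the aged pools, and Ryr1 was among them (-4.45 ± 0.42). T cell markers were higher in 6 of 6, with list means of -0.65 and -1.06 in young and 1.30 and 0.59 in aged pools, led by Cd3g (4.15 ± 0.47). Of these, Cd3e (0.34 ± 0.37), Cd2 (0.65 ± 0.77) and Cd4 (0.12 ± 0.40) differed by less than 1 standard error. B and plasma cell markers were higher in 5 of 5, led by Jchain (4.28 ± 0.58). Macrophage markers were lower in 7 of 7, with list means of 0.67 and 0.53 in young and -1.08 and -0.50 in aged pools, led by Adgre1 (-2.42 ± 0.36). Pericyte markers were higher in 5 of 5. The part of these cells in the members' values was not tested, and values without a level do not show which markers were absent.

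Of 8 satellite cell markers 5 were higher and 3 lower. Pax7 (2.31 ± 0.36) and Myf5 (2.56 ± 0.63) were the 2 with an unadjusted p under 0.05 (2.85% of all genes were higher at that p). The endothelial list was lower in 4 of 5, with the pools of the ages overlapping in all 5. The neutrophil list was lower in 3 of 4, the fibro-adipogenic list was higher in 3 of 4, and of the Schwann and erythroid lists 2 of 2 and 1 of 2 were higher. Xist, the RNA of the inactive X chromosome, was 6.16 ± 0.44 higher in the aged pools, and the sex of the mice was not in the labels used here. It stood at -3.48 and -2.67 in the young pools and at 3.21 and 2.97 in the aged pools. A difference of sex between the groups cannot be told apart from one of age in any of the values given here. In bulk RNA, a change in the share of cycling cells and a change in a transcript per cell cannot be told apart, in either direction.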

How the data were processed

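RNA of 4 pools of Syndecan-4-sorted cells was amplified, labelled with biotin and hybridised to Affymetrix arrays, per the labels' protocols. The table the authors deposited holds 45101 probe sets with values read as log2, and each row's median over the 4 arrays is 0 within 5e-07. For the log base, background correction, probe summary and normalization, the sources used here give nothing. No dim-gene filter was possible.

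Gene names came from GEO's platform annotation, brought up to the symbols of GRCm38.p6 through Entrez IDs (34741 of 34945 probe sets with 1 symbol matched). Those with several symbols (932) or none (9160), and 64 controls, were left out. The test was that of limma 3.58.1 under R 4.3.3 (lmFit, eBayes without trend, two-sided, Benjamini-Hochberg over 18193 genes, threshold 0.05, 2 residual and 3.56 prior degrees of freedom). The ± is the standard error of this fit, in which eBayes draws the variance of each gene toward a value common to all genes. It is therefore not the spread of that gene's pools alone. The fit was tested on simulated data with a small part of the genes altered and independent noise. There it returned nearly all directions of altered genes but passed none of them at the adjusted threshold. The number of arrays limits the precision. The p-values set a difference against the spread between pools of one age, which is estimated partly from all genes.

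The members and lists were chosen with earlier results of these data known. All members are named with their difference. Values per pool are given for those with an unadjusted p under 0.05, the 5 largest differences in either direction, any whose probe sets differ beyond 1 in both directions (none) and Mki67, Top2a, Ccnb1 (not analysed here), Cdk1, Plk1, Aurkb, Cdc20, Birc5 and Foxm1, and for Kif20a, chosen after its values were seen. Of comparison lists, up to 4 genes with the smallest p are named, and some others were named after their values were seen.

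Alternatives were quantile normalization, array medians at 0, the probe set with the largest SD, no _x_at or _s_at probe sets, robust eBayes, a variance trend, a replicate block, leaving out each pool and single probe sets.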

Additional observations from a re-analysis of the deposited data

How the results depend on the processing

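Across the 11 alternatives no member passed the adjusted threshold (lowest adjusted p 0.373 with the variance trend), and 22 to 30 members were higher in aged pools. The median difference ran from 0.06 to 0.24 without 1 pool and from 0.14 to 0.25 otherwise. The variance trend on the mean called 221 of all genes, none a member; a row mean here does not measure abundance. Under quantile normalization and with array medians at 0 Foxm1 turned sign (-0.0012 and -0.015), with the probe set of largest SD Foxm1 (-0.053), Aurkb (0.028) and Kif22 (-0.17), and without _x_at and _s_at probe sets Prc1 (-0.34), where 40 members remained measured.

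Leaving out 1 pool turned the sign of 21 members. Their lowest and highest values were -1.24 and 0.083 for Aurka, -0.49 and 0.18 for Aurkb, -0.30 and 0.57 for Ccnb2, -1.32 and 0.30 for Cdc25b, -1.21 and 0.24 for Cdk1, -0.24 and 0.33 for Cenpf, -1.09 and 0.47 for Ect2, -0.14 and 0.16 for Foxm1, -0.070 and 0.54 for Incenp, -0.68 and 1.50 for Kif20a, -0.18 and 0.29 for Kif22, -0.31 and 0.49 for Mad2l1, -0.19 and 0.41 for Melk, -0.94 and 1.41 for Mki67, -0.48 and 0.34 for Nek2, -0.22 and 0.70 for Nusap1, -0.53 and 0.40 for Plk4, -0.44 and 0.78 for Prc1, -0.032 and 0.77 for Spag5, -0.19 and 0.67 for Top2a and -0.082 and 0.28 for Ttk. The other 20 kept their sign, 15 higher and 5 lower. The cause of these turns was not tested.

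With the replicate number as a block, 0 genes passed the adjusted threshold and 1768 had an unadjusted p under 0.05, against 1645 without it, and the block changed no member's call. Same-numbered pools deviated together over genes with a correlation of 0.138, but the labels do not say what a number shares.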
